A study of Mus musculus with 18 samples.

Results

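The genes described here make, lengthen and desaturate fatty acids. They are the 10 rows of the deposited gene table named Srebf1, Acaca, Fasn, Elovl6, Elovl1, Elovl5, Scd1, Scd2, Fads1 and Fads2, chosen by name out of 18668 gene symbols. All 10 had at least 0.1 RPKM (reads scaled to gene length and library size) in at least 3 libraries and were tested, among 12838 genes that did so. Bone marrow-derived macrophages (BMDM) were grown with M-CSF for 7 days from C57BL6 mice lacking Apoe (Apoe-/-) or both Apoe and Treml4 (Apoe-/-/Treml4-/-, DKO). Both genotypes therefore lack Apoe, the deletions are not limited to macrophages, and DKO cells in addition lack Treml4, a myeloid surface receptor. Cells received PBS (untreated) or oxidized low-density lipoprotein (oxLDL), the modified particle that macrophages take up in plaques, at 10 or 60 µg/ml (oxLDL 10 and oxLDL 60) for 16 h by the series description. The study's methods give a longer time and one label speaks of LPS, and neither point could be settled. Each of the 6 groups held 3 libraries made from total RNA, and the study's methods name a poly(A) selection in library preparation. The ages of the animals were not given in the labels, and no wild-type cells were analysed here.

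As background, acetyl-CoA carboxylase (Acaca) and fatty acid synthase (Fasn) build palmitate, elongases of the Elovl family lengthen fatty acids, and desaturases insert double bonds. SREBP-1, the product of Srebf1, is a membrane-bound transcription factor whose cleavage is held back by sterols, while liver X receptors (LXR), which sense oxysterols, induce Srebf1 and the stearoyl-CoA desaturases. In macrophages the pathway supplies membrane lipids and the unsaturated fatty acids used to esterify cholesterol.

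Promoter windows were searched because several members moved together. RefSeq on GRCm38.p6, the assembly that mm10 corresponds to, gave 10 windows for 7 of the 10 genes (Srebf1, Acaca, Fasn, Elovl6, Elovl1, Elovl5 and Fads2), from 250 bases before to 50 after each start. Scd1, Scd2 and Fads1 had no entry. Shown are the bases before the start of Fasn and Elovl6, which fell with oxLDL in both genotypes, and of Elovl5, which was not called in any comparison, with CCAAT boxes on either strand in capitals. The Elovl6 run stops short of its RefSeq start, at the earlier start that GENCODE M21 gives, and the search used the full window.
Fasn (chr11:120824548-120824797, minus strand): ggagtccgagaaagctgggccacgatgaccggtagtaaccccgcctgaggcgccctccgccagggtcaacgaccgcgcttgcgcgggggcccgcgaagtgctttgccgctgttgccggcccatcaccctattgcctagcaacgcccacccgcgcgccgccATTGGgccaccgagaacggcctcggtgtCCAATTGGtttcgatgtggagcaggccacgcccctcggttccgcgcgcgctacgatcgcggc
Elovl6 (chr3:129532136-129532354, plus strand): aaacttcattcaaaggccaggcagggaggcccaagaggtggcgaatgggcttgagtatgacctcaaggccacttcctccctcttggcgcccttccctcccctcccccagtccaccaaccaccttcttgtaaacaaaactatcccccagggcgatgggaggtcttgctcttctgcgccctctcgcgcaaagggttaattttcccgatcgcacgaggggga
Elovl5 (chr9:77917115-77917363, plus strand): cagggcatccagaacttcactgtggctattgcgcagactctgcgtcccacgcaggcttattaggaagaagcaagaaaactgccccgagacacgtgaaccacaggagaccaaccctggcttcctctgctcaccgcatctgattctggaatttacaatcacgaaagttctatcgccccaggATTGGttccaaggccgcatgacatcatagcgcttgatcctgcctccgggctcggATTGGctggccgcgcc

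None of the 10 windows held the sterol response element spelled TCACNCCAC, which 1.24% of 32851 promoters of this length held, and none held an exact match of the LXR DR4 element, the direct repeat that LXR dimers bind, held by 0.0152%. CCAAT, the site of NF-Y, was present in 5 windows of 4 genes, against 37.4% of all promoters. Fasn had 3 such matches, of which a pair on opposite strands shared bases, and Elovl5 had 2. The GC box GGGCGG was present in 5 windows of 3 genes (Elovl1, Srebf1 and Fads2), against 35.7% of promoters. The E-box CACGTG occurred in 1 window, that of Elovl5, against 7.15% of promoters. Both strands were read for every motif. Elovl6 and Acaca held none of these motifs. The Acaca window (chr11:84195188-84195487) lies inside the gene, which starts at 84129672 in GENCODE M21, and the bases before that start were not searched.

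The libraries were macrophage-like by their markers. All 8 macrophage markers were present, with a summed level of 5560 to 11960 RPKM, whereas B cell and erythroid markers were below 0.1 RPKM throughout and the 7 neutrophil and granulocyte precursor markers summed to 30.1 to 82.3 RPKM, with Ly6g below 0.1 RPKM. Treml4 lay between 1.86 and 8.39 RPKM in Apoe-/- libraries and at most at 0.0116 RPKM in DKO libraries, while Apoe retained 0.349 to 4.13 RPKM. Xist exceeded 1 RPKM in 6 libraries, replicate 2 of Apoe-/- and replicate 3 of DKO at every treatment. Depth, recovered from the steps in low RPKM values, differed by at most 1.36-fold between libraries. In RNA of whole cultures such as these, fewer cells of a type and less RNA per cell cannot be told apart.

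By RPKM, which is per length, the 10 genes ranged over more than 2 orders of magnitude in mean level over the 18 libraries. Elovl1 was highest at 44.7 RPKM, followed by Fads1 at 26.2, Elovl5 at 22.7 and Srebf1 at 17.9 RPKM. Scd2 (9.23), Fasn (8.56), Acaca (4.70) and Fads2 (2.64) formed the middle of the order, and Elovl6 (0.836) and Scd1 (0.154 RPKM) were lowest. Neighbours in this order had ranges over the 18 libraries that overlapped, except Elovl1 and Fads1, Srebf1 and Scd2, and Elovl6 and Scd1. The 4 most abundant genes varied least, with a highest library 1.23 to 1.37 times the lowest, against 6.26 times for Scd2, 4.18 for Fads2, 4.00 for Elovl6, 3.72 for Fasn and 10.3 for Scd1.

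**Figure D1:**
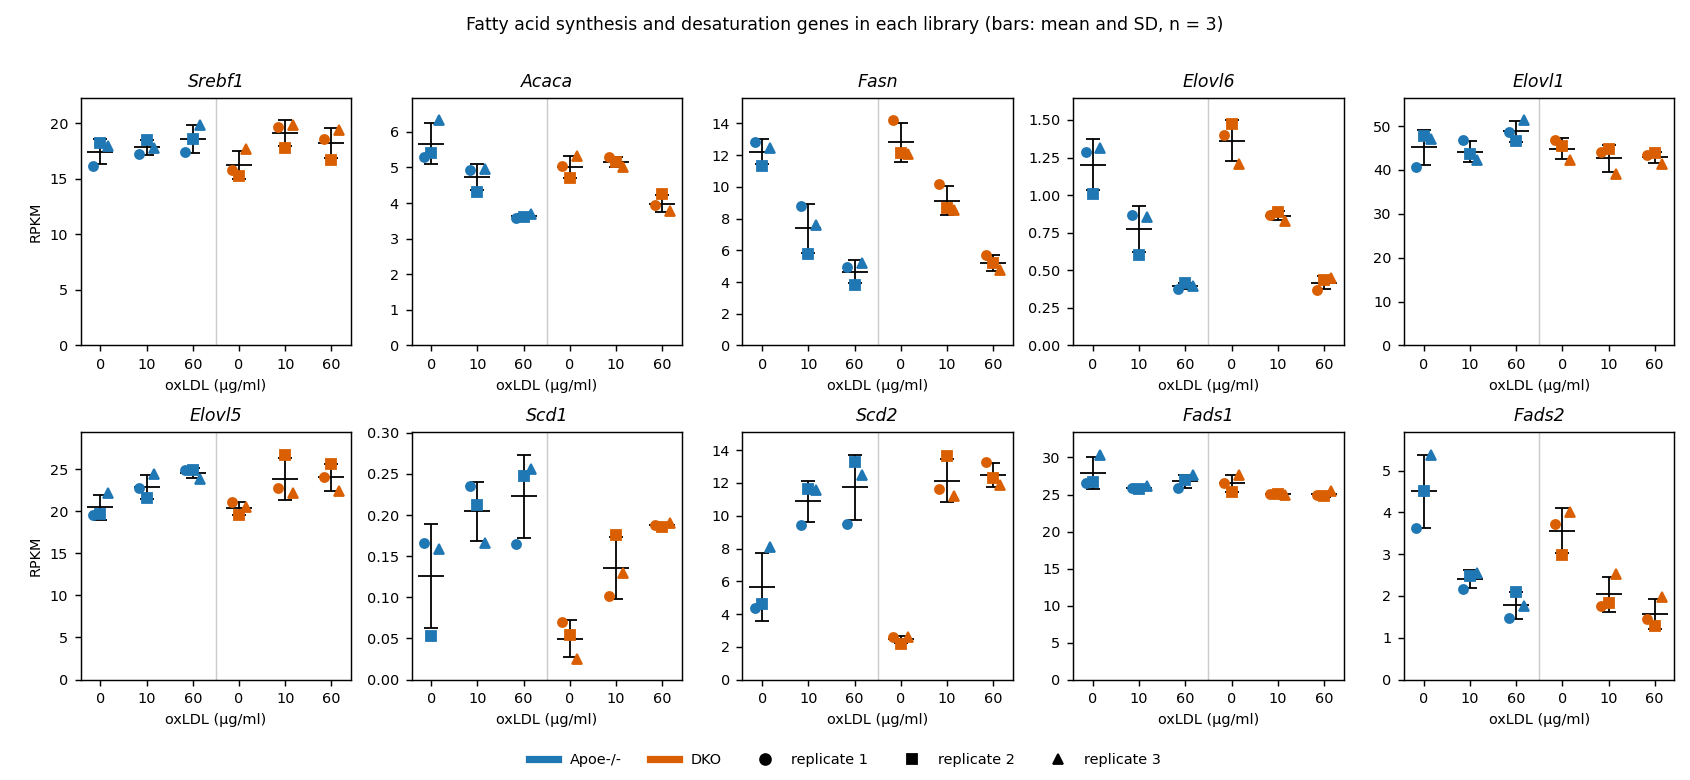
RPKM of the 10 genes in each of the 18 libraries, against the amount of oxLDL (µg/ml); symbols mark replicate numbers, colours the genotype, and bars the mean and SD of 3 libraries. Fasn, Elovl6 and Fads2 step down with oxLDL, Scd2 rises from a lower and tighter start in DKO cells, and Srebf1, Elovl1 and Fads1 show no such step.

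The first question was how each amount of oxLDL changed these genes in each genotype. A change is termed called where the adjusted p (limma, Benjamini-Hochberg over 12838 genes) was under 0.05 and the change at least 1.4-fold on the log2(RPKM + 0.1) scale, on which the changes of low genes are understated. With oxLDL 10, 4 of the 10 genes were called in Apoe-/- cells, where 2.79% of all genes were called. Scd2 was higher (0.748% of all genes were called higher), and Fasn, Fads2 and Elovl6 were lower (2.04% lower). In DKO cells 3 were called, against 2.26% of all genes, with Scd2 higher (0.569%) and Fads2 and Elovl6 lower (1.69%). With oxLDL 60, 5 genes were called in Apoe-/- cells, against 13.9% of all genes, with Scd2 higher (7.13%) and Fasn, Fads2, Elovl6 and Acaca lower (6.78%). In DKO cells 5 were called as well, against 12.2% of all genes, with Scd2 and Scd1 higher (4.87%) and Fasn, Fads2 and Elovl6 lower (7.31%). Between oxLDL 60 and oxLDL 10 the calls were Fasn and Elovl6, lower at the higher amount, in Apoe-/- cells (6.46% of all genes called and 3.54% lower) and in DKO cells (5.66% and 3.74%). Groups did not overlap for 6 of the 10 genes with oxLDL 10 and 6 with oxLDL 60 in Apoe-/- cells, against 20.5% and 40.7% of all genes, and for 8 and 7 in DKO cells, against 18.9% and 42.6%. Between the amounts this held for 4 genes in each genotype, against 30.5% of all genes in Apoe-/- and 33.7% in DKO cells. The median log2 change of the 10 genes with oxLDL 60 stayed near that of all genes. It was 0.02 against 0.06 in Apoe-/- cells and -0.07 against -0.06 in DKO cells. These medians fell between members that were not called, Fads1 and Srebf1 in Apoe-/- cells and Fads1 and Elovl1 in DKO cells. The comparisons with oxLDL 10 and oxLDL 60 share the untreated libraries of their genotype.

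**Figure D2:**
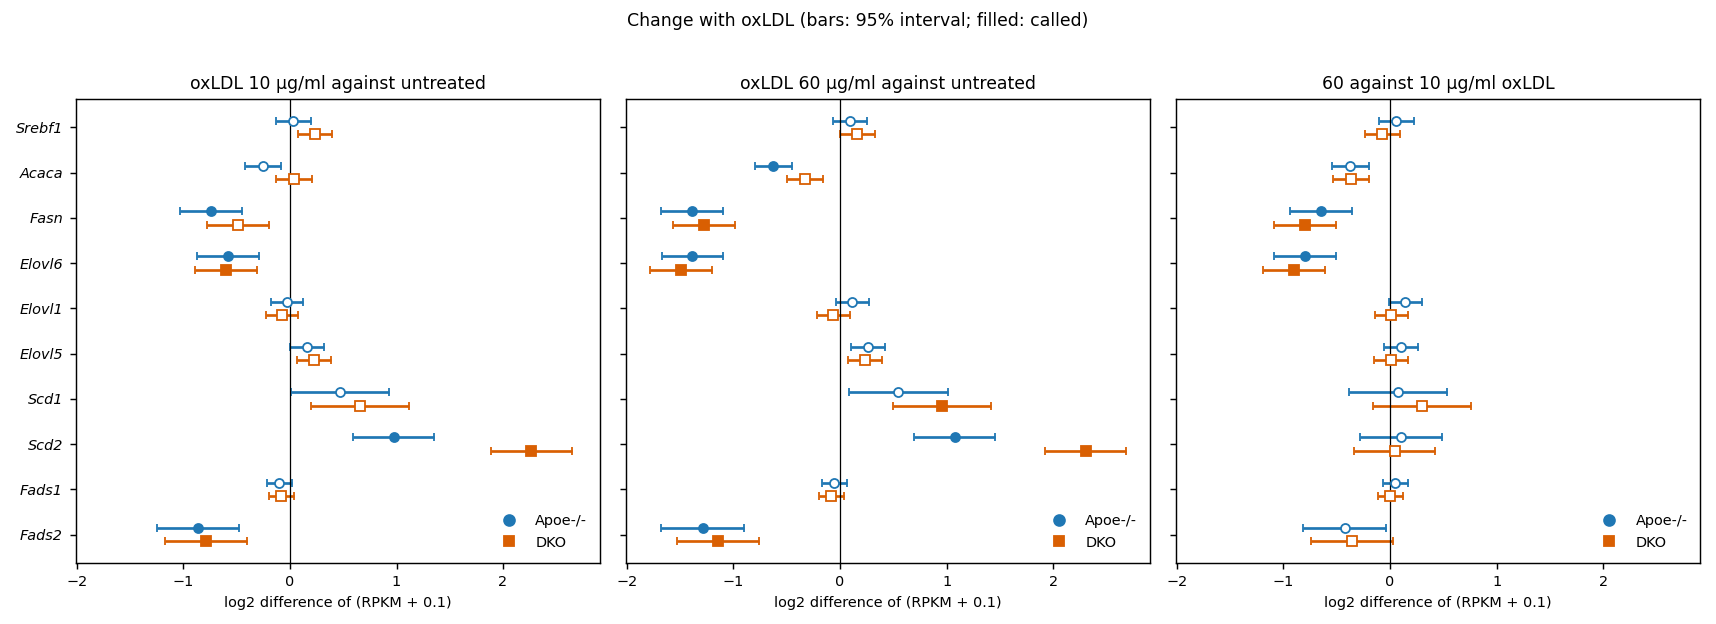
Difference of log2(RPKM + 0.1) for each gene with oxLDL 10 or oxLDL 60 against untreated cells and with oxLDL 60 against oxLDL 10; bars are 95% intervals from limma and filled symbols are called. Fasn and Elovl6 fall further at the higher amount, whereas Scd2 does not differ between the amounts beyond its interval.

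Srebf1, the transcription factor of the group, was not called in any comparison. Its level was 16.1, 18.3 and 17.9 RPKM in untreated Apoe-/- libraries and 17.4, 18.6 and 19.8 RPKM with oxLDL 60. In DKO cells it was 15.8, 15.3 and 17.7 RPKM untreated, 19.6, 17.8 and 19.9 RPKM with oxLDL 10 and 18.6, 16.7 and 19.4 RPKM with oxLDL 60. The DKO libraries with oxLDL 10 all lay above the untreated ones, though the highest untreated and the lowest treated value differed little. The log2 difference with oxLDL 60 was 0.09 in Apoe-/- cells (95% interval -0.07 to 0.25, adjusted p = 0.398) and 0.16 in DKO cells (0.001 to 0.326, adjusted p = 0.135). With oxLDL 10 it was 0.23 in DKO cells (adjusted p = 0.119). RefSeq lists 3 promoter windows for Srebf1, and a value per gene does not separate the transcripts that start there.

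Of the enzymes of palmitate synthesis, Fasn was called lower with oxLDL 60 in both genotypes and Acaca in Apoe-/- cells. The carboxylase gene Acaca, whose product makes malonyl-CoA, was at 5.29, 5.39 and 6.32 RPKM in untreated Apoe-/- cells, 4.94, 4.30 and 4.96 RPKM with oxLDL 10 and 3.58, 3.62 and 3.69 RPKM with oxLDL 60. The 3 Apoe-/- groups did not overlap. In DKO cells Acaca was at 5.05, 4.70 and 5.32 RPKM untreated, 5.31, 5.15 and 5.01 RPKM with oxLDL 10, and 3.93, 4.25 and 3.78 RPKM with oxLDL 60. The first 2 DKO groups overlapped and the third lay below both. With oxLDL 60 the log2 level of Acaca fell by 0.62 in Apoe-/- cells (SE 0.08, adjusted p = 1.5e-05). In DKO cells the log2 difference of -0.33 (SE 0.08, adjusted p = 0.00621) passed the limit on p but not the 1.4-fold limit, and the same held between the 2 amounts of oxLDL in each genotype (-0.37, adjusted p = 0.00477, and -0.36, adjusted p = 0.00545). The interaction of genotype and oxLDL 60 for Acaca was 0.30 (SE 0.11, adjusted p = 0.507), so a smaller change in DKO cells was not shown.

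Fasn, which assembles palmitate, was at 12.9, 11.3 and 12.5 RPKM in untreated Apoe-/- libraries, 8.80, 5.77 and 7.57 RPKM with oxLDL 10 and 4.92, 3.82 and 5.18 RPKM with oxLDL 60. It was at 14.2, 12.2 and 12.1 RPKM in untreated DKO libraries, 10.2, 8.69 and 8.53 RPKM with oxLDL 10 and 5.72, 5.18 and 4.74 RPKM with oxLDL 60. No 2 groups of either genotype overlapped, and levels were stepwise lower at each amount. With oxLDL 60 the log2 level of Fasn fell by 1.39 in Apoe-/- cells (SE 0.14, adjusted p = 7.4e-07) and by 1.28 in DKO cells (SE 0.14, adjusted p = 2.1e-06). With oxLDL 10 it fell by 0.74 in Apoe-/- cells (adjusted p = 0.00356), while the log2 difference of -0.48 in DKO cells was not called (adjusted p = 0.0626) and was called after median ratio rescaling of the libraries (-0.50). From oxLDL 10 to oxLDL 60 it fell by 0.65 in Apoe-/- cells (adjusted p = 0.00384) and by 0.80 in DKO cells (adjusted p = 0.000747).

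Among the elongases, Elovl6 fell and the 2 more abundant ones were not called. Elovl6, which lengthens palmitate to stearate, was at 1.29, 1.01 and 1.31 RPKM in untreated Apoe-/- libraries, 0.868, 0.599 and 0.853 RPKM with oxLDL 10, and 0.378, 0.417 and 0.393 RPKM with oxLDL 60. It was at 1.402, 1.472 and 1.21 RPKM in untreated DKO libraries, 0.867, 0.891 and 0.830 RPKM with oxLDL 10, and 0.368, 0.434 and 0.452 RPKM with oxLDL 60. As for Fasn, groups of a genotype did not overlap. These low levels rested on 87 to 431 reads per library, estimated from the gene's own steps in RPKM. With oxLDL 60 the log2 level of Elovl6 fell by 1.38 in Apoe-/- cells (SE 0.14, adjusted p = 7.4e-07) and by 1.50 in DKO cells (SE 0.14, adjusted p = 3.4e-07). Between the amounts it fell by 0.80 (adjusted p = 0.000685) and 0.90 (adjusted p = 0.000266). The calls with oxLDL 10, at -0.58 in Apoe-/- cells (adjusted p = 0.0163) and -0.60 in DKO cells (adjusted p = 0.0178), were weaker. The first was lost without untreated replicate 1 (-0.53) or oxLDL 10 replicate 2 (-0.43) and with only these 2 groups fitted (adjusted p = 0.139), and the second without untreated replicate 1 (-0.58) or 2 (-0.54) or without oxLDL 10 replicate 1 (-0.60), 2 (-0.62) or 3 (-0.57).

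Elovl5, which lengthens polyunsaturated fatty acids, was at 19.6, 19.7 and 22.2 RPKM in untreated Apoe-/- libraries and 24.9, 24.9 and 23.9 RPKM with oxLDL 60. In DKO cells it was at 21.1, 19.6 and 20.5 RPKM untreated and 24.1, 25.6 and 22.4 RPKM with oxLDL 60. The treated libraries lay above the untreated ones in both genotypes. The log2 differences of 0.26 (SE 0.08, adjusted p = 0.0151) and 0.24 (SE 0.08, adjusted p = 0.0300) were under 1.4-fold and not called. Elovl1, an elongase of saturated very long chains, ranged from 40.6 to 51.3 RPKM in Apoe-/- libraries and from 39.0 to 46.8 RPKM in DKO libraries. Its log2 difference with oxLDL 60 was 0.11 in Apoe-/- cells (95% interval -0.04 to 0.27, adjusted p = 0.255) and -0.06 in DKO cells (-0.21 to 0.09, adjusted p = 0.586).

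The stearoyl-CoA desaturases, which make oleate from stearate, were the members called higher. Scd2 was at 4.36, 4.60 and 8.07 RPKM in untreated Apoe-/- libraries, 9.43, 11.6 and 11.6 RPKM with oxLDL 10, and 9.48, 13.3 and 12.5 RPKM with oxLDL 60. It was at 2.58, 2.18 and 2.58 RPKM in untreated DKO libraries, 11.6, 13.7 and 11.2 RPKM with oxLDL 10, and 13.3, 12.3 and 11.9 RPKM with oxLDL 60. Treated libraries all lay above untreated ones, replicate 3 of untreated Apoe-/- stood apart from the other 2, and the 2 amounts of oxLDL overlapped. In Apoe-/- cells Scd2 rose by 0.97 on the log2 scale with oxLDL 10 (SE 0.18, adjusted p = 0.00341) and by 1.08 with oxLDL 60 (SE 0.18, adjusted p = 0.000204). In DKO cells it rose by 2.26 with oxLDL 10 (SE 0.18, adjusted p = 7.2e-06) and by 2.31 with oxLDL 60 (SE 0.18, adjusted p = 5.3e-08). Between oxLDL 60 and oxLDL 10 the log2 difference was 0.10 (95% interval -0.28 to 0.48) in Apoe-/- cells and 0.04 (-0.34 to 0.42) in DKO cells, and neither was called.

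Scd1 is the main stearoyl-CoA desaturase of liver and fat, and here it was close to the lower limit of the data. It was at 0.166, 0.0526 and 0.158 RPKM in untreated Apoe-/- libraries and 0.164, 0.248 and 0.256 RPKM with oxLDL 60. In DKO cells it was at 0.0696, 0.0546 and 0.0249 RPKM untreated, 0.101, 0.176 and 0.130 RPKM with oxLDL 10, and 0.187, 0.185 and 0.191 RPKM with oxLDL 60. All untreated DKO libraries were below 0.1 RPKM, and the values rested on an estimated 5 to 54 reads per library. These estimates deviated from whole numbers by up to 0.068, more than the 0.05 allowed for the depth steps, and are less certain than those of Elovl6. The gene passed the filter on low values only through other groups, and was called higher in DKO cells with oxLDL 60 (0.95 on the log2 scale, SE 0.22, adjusted p = 0.00341). In Apoe-/- cells the difference of 0.55 was not called (adjusted p = 0.0684), but was called without untreated replicate 1 (0.69) or 3 (0.67), without oxLDL 60 replicate 1 (0.69) and without the trend (adjusted p = 0.0461). Scd1 and Scd2 lie next to each other on chromosome 19 and are similar in sequence. How reads that match both were counted is not given in the sources used here, so part of the Scd1 signal may be uncertain.

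The desaturases of polyunsaturated fatty acids differed from each other. Fads2, which starts the conversion of linoleic acid to longer fatty acids, was at 3.62, 4.50 and 5.38 RPKM in untreated Apoe-/- libraries, 2.17, 2.49 and 2.56 RPKM with oxLDL 10, and 1.47, 2.11 and 1.76 RPKM with oxLDL 60. It was at 3.71, 2.97 and 4.01 RPKM in untreated DKO libraries, 1.75, 1.83 and 2.52 RPKM with oxLDL 10, and 1.44, 1.29 and 1.98 RPKM with oxLDL 60. Treated libraries all lay below untreated ones, while the 2 amounts overlapped in DKO cells and did not in Apoe-/- cells. With oxLDL 60 the log2 level of Fads2 fell by 1.29 in Apoe-/- cells (SE 0.18, adjusted p = 4.0e-05) and by 1.15 in DKO cells (SE 0.18, adjusted p = 0.000146). With oxLDL 10 it fell by 0.86 in Apoe-/- cells (adjusted p = 0.00847) and by 0.79 in DKO cells (adjusted p = 0.0192). The last call was lost without untreated replicate 1 (-0.75) or 3 (-0.70) or without oxLDL 10 replicate 1 (-0.69) or 2 (-0.72), without the filter on low values (adjusted p = 0.0534) and with only these 2 groups fitted (adjusted p = 0.0542). Fads1, the next desaturase of that route and the neighbour of Fads2 on chromosome 19, stayed between 24.8 and 30.4 RPKM in all 18 libraries. Its log2 difference with oxLDL 60 was -0.05 in Apoe-/- cells (95% interval -0.17 to 0.06) and -0.08 in DKO cells (-0.20 to 0.04).

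Libraries with the same replicate number within a genotype deviated together and were read as one animal, though the labels do not state this. In such pairs Fasn, Fads2 and Elovl6 were lower with oxLDL in 3 of 3 pairs of each genotype at each amount. Scd2 was higher in 3 of 3. Because these groups did not overlap, no pairing could have given another count. Elovl5, which was not called, was also higher in 3 of 3 throughout, and Fads1 and Elovl1 were lower in 3 of 3 in DKO cells. How many of all genes had 3 of 3 on one side was not counted. The all-gene median with oxLDL 60 in DKO cells was -0.063. After median ratio rescaling, Fads1 and Elovl1 differed there by -0.02 and 0.0 on the log2 scale. With oxLDL 10 these rescaled values were -0.1 and -0.09. For Fasn the log2 ratio of pairs lay between -1.54 and -1.25 in Apoe-/- cells and between -1.33 and -1.21 in DKO cells with oxLDL 60. For Scd2 it lay between 0.62 and 1.51 in Apoe-/- cells and between 2.16 and 2.44 in DKO cells. The summed level of the macrophage markers was lower with oxLDL 60, at 6529 to 8483 RPKM against 8932 to 11760 RPKM untreated in Apoe-/- cells and at 5560 to 7152 against 8383 to 10950 RPKM in DKO cells. Lyz2 alone lay at 3970 to 9911 RPKM over the 18 libraries, and no other marker of this list exceeded 671.3 RPKM. The sum thus mostly follows Lyz2, and the part of this sum in the changes above was not tested.

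The next question was whether loss of Treml4 changed these genes. In untreated cells 1 of the 10 genes was called between DKO and Apoe-/-, Scd2, which was lower in DKO cells, against 0.21% of all genes called and 0.0389% called lower. The 3 DKO libraries (2.18 to 2.58 RPKM) lay below the 3 Apoe-/- libraries (4.36 to 8.07 RPKM), a separation that 19.6% of all genes and no other member showed, and the log2 difference was -1.13 (SE 0.18, adjusted p = 0.0106). This call was lost without untreated DKO replicate 2 (log2 difference -1.05), and when only these 2 groups were fitted (adjusted p = 0.124). With oxLDL the levels of Scd2 in the genotypes overlapped, with log2 differences of 0.16 with oxLDL 10 (95% interval -0.22 to 0.54, adjusted p = 0.777) and 0.10 with oxLDL 60 (-0.28 to 0.48, adjusted p = 0.908). At these treatments 0 of the 10 genes were called by limma, where 0.0857% and 0.125% of all genes were, and Fasn with oxLDL 10 (0.32, unadjusted p = 0.0334) and Elovl1 with oxLDL 60 (-0.19, unadjusted p = 0.0203) were the only 2 members with an unadjusted p under 0.05, as were 1252 and 1011 of all 12838 genes. The summed level of the 4 stromal markers, low but variable, was 0.326 to 5.99 RPKM in untreated Apoe-/- and 0.676 to 2.35 RPKM in untreated DKO libraries, with Pdgfra below 0.1 RPKM throughout. The neutrophil markers summed to 30.2 to 47.4 and 36.6 to 82.3 RPKM in the same groups, and the part of either in the Scd2 difference was not tested.

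**Figure D3:**
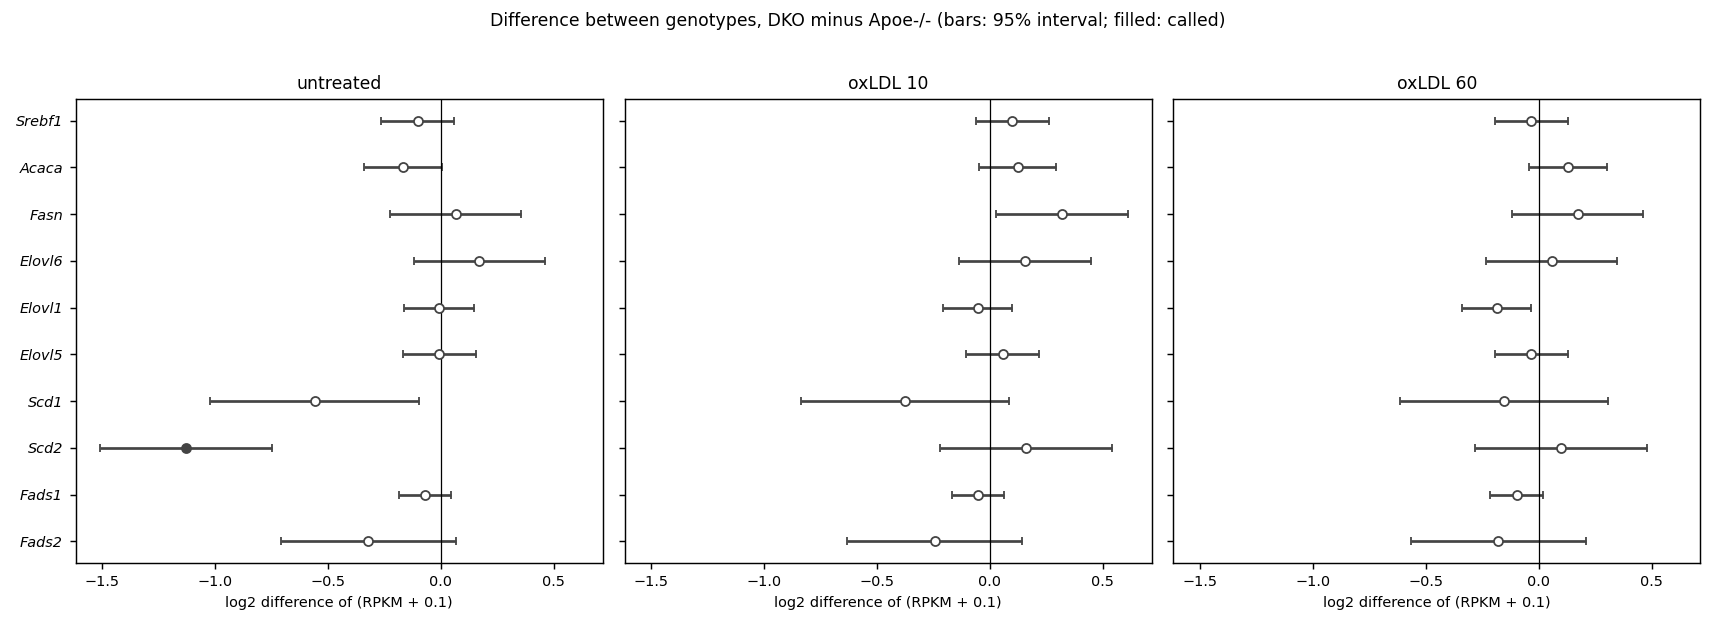
Difference of log2(RPKM + 0.1) between DKO and Apoe-/- cells for each gene, untreated and with oxLDL 10 and oxLDL 60; bars are 95% intervals from limma and the filled symbol is called. Scd2 lies at -1.13 in untreated cells and near 0 with either amount of oxLDL.

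The difference between genotypes in the response to oxLDL was tested as an interaction. For Scd2 it was 1.29 on the log2 scale with oxLDL 10 (95% interval 0.75 to 1.83) and 1.23 with oxLDL 60 (0.69 to 1.77), both in the direction of a larger rise in DKO cells. Without a term for the animal, 0 of the 10 genes were called with limma at either amount, and the adjusted p for Scd2 was 1.0 and 0.414. Of all genes 0.0% were called with oxLDL 10 (246 genes had an unadjusted p under 0.05) and 0.0156% with oxLDL 60 (1256 genes). With the replicate number, read as the animal, as a block, Scd2 was called at both amounts (SE 0.18, adjusted p = 0.0386 with oxLDL 10 and 0.0231 with oxLDL 60). In this fit 1 of 12838 genes was called with oxLDL 10 and 5 with oxLDL 60. With the block and median ratio rescaling together, chosen after seeing the data, the adjusted p for Scd2 was 0.0735 and 0.0210. The lower untreated level in DKO cells enters both interactions, and the value was smallest without untreated Apoe-/- replicate 3, at 1.01 with oxLDL 10 and 0.95 with oxLDL 60. Among the other 9 genes the interaction ranged from -0.05 for Elovl1 to 0.29 for Acaca with oxLDL 10 and from -0.18 for Elovl1 to 0.41 for Scd1 with oxLDL 60, and Acaca had an unadjusted p under 0.05 at both amounts (0.0211 and 0.0187). The all-gene median of the interaction with oxLDL 60 was -0.11, and it was 0.005 after rescaling.

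Other genes of the pathway were taken from lists, whose counts stand beside the shares of all genes called higher or lower given above. Of 5 tested genes of malonyl-CoA and precursor supply, Acss2, which makes acetyl-CoA from acetate, and Me1, which makes NADPH, rose with oxLDL 60, against 7.13% of all genes in Apoe-/- and 4.87% in DKO cells. Acss2 rose by 1.63 in Apoe-/- cells and by 1.58 in DKO cells on the log2 scale, and Me1 by 0.83 and 0.69. None of these 5 was called with oxLDL 10. Of 6 tested desaturases and electron donors outside the 10 genes, Cyb5a, the cytochrome b5 that feeds desaturases, rose with oxLDL 60 by 1.38 in Apoe-/- cells and 1.22 in DKO cells. With oxLDL 10 its log2 differences were 0.49 in Apoe-/- cells, called but not after rescaling (0.42), and 0.48 in DKO cells, just under the 1.4-fold limit. Of 7 tested other elongases and elongation cycle enzymes, 1 was called, Hacd3, which fell by 0.56 in DKO cells with oxLDL 60, where 7.31% of all genes fell. Of 4 acyl-CoA synthetases, Acsl1 fell by 0.74 in Apoe-/- cells and 0.72 in DKO cells, and Acsl5 by 0.49 and 0.58, with oxLDL 60, against 6.78% and 7.31% of all genes. Acss2, Me1 and Cyb5a thus rose with the amount of oxLDL at which Fasn and Elovl6 were lowest.

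Regulators and the targets of 2 transcription factors were set beside the 10 genes. Of 9 tested genes of transcriptional control, Srebf2 and Insig1, which acts in the sterol-dependent retention of SREBPs, fell at both amounts in both genotypes. With oxLDL 60 Srebf2 fell by 1.18 in Apoe-/- cells and by 1.23 in DKO cells, and Nr1h3, which encodes LXRα, by 1.01 and 0.91. Insig2 rose by 0.49 with oxLDL 60 in Apoe-/- cells, a call that was lost after rescaling (0.43) or without untreated replicate 1 (0.42) or oxLDL 60 replicate 3 (0.45). Of 10 SREBP2 targets outside fatty acid synthesis, 9 fell with oxLDL 10 and 7 with oxLDL 60 in Apoe-/- cells, against 2.04% and 6.78% of all genes, and 8 and 7 fell in DKO cells, against 1.69% and 7.31%. Of 6 LXR targets outside fatty acid synthesis, the same 3 rose in each of these 4 comparisons, the cholesterol transporters Abca1 and Abcg1 and the ubiquitin ligase Mylip, where between 0.569% and 7.13% of all genes rose. The Abca1 call with oxLDL 10 in Apoe-/- cells was lost after rescaling (1.15 and 1.09). Abcg1 rose by 2.08 in Apoe-/- cells and 2.79 in DKO cells with oxLDL 60. No gene of these lists was called between genotypes or in an interaction.

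**Figure D4:**
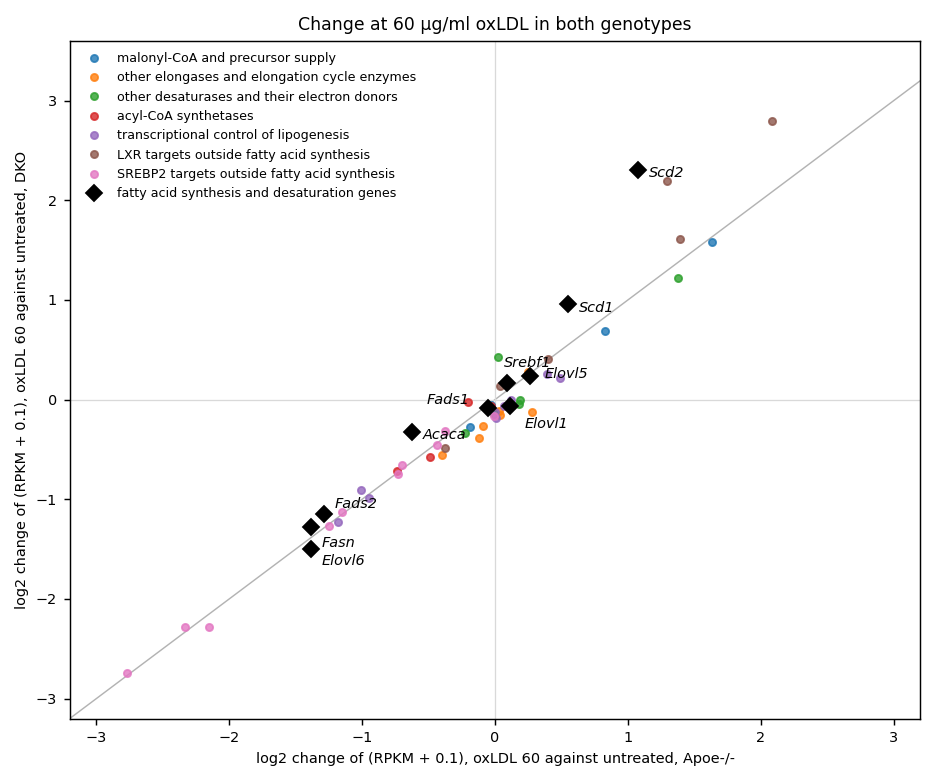
Difference of log2(RPKM + 0.1) with oxLDL 60 against untreated cells in DKO (vertical) against Apoe-/- cells (horizontal), for the 10 genes (black diamonds) and the genes of 7 lists (coloured points); the grey line marks equal change. Fasn, Elovl6 and Fads2 lie near the line, in the region of SREBP2 targets and of Srebf2. Scd2 lies above it near Abca1, one of the LXR targets called higher (3 of 6 in each genotype).

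The genes whose pattern was most like that of Scd2 over the 18 libraries, by Pearson's r of log2(RPKM + 0.1) among 10094 genes with a mean of at least 1 RPKM, were Abcg1 (0.948), Ap5s1 (0.935), Abca1 (0.917), Mylip (0.905) and Cnnm2 (0.888). Abcg1 had group means of 21.8, 72.9 and 87.8 RPKM in Apoe-/- cells and 12.8, 72.1 and 85.1 RPKM in DKO cells from untreated to oxLDL 60. Abca1 had 13.4, 27.6 and 30.1 RPKM and 7.36, 28.6 and 31.9 RPKM. Both had a lower mean in untreated DKO than in untreated Apoe-/- cells, as Scd2 did, though neither difference was called. For Srebf1 the nearest genes were Foxo3 (0.848), Plbd2 (0.837), Atp13a2 (0.805), Ago4 (0.786) and Prex1 (0.783), and none of them is in the lists above. These correlations describe libraries that share treatments and replicate numbers.

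**Figure D5:**
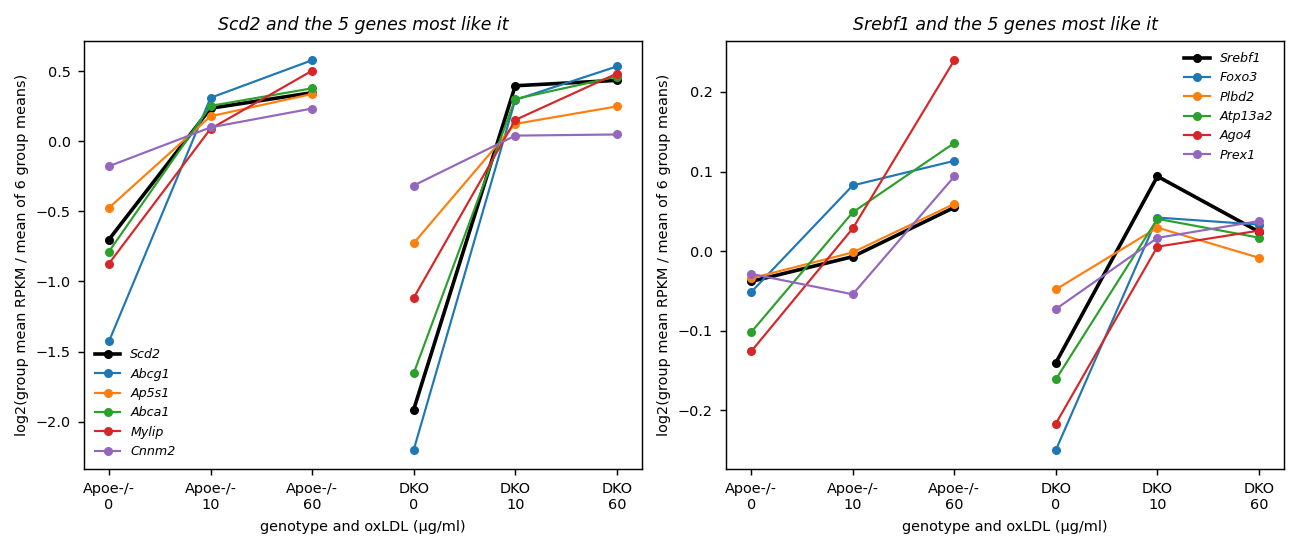
Group mean RPKM of Scd2 (left) and Srebf1 (right), each with the 5 genes most like it over 18 libraries, as log2 of the ratio to the mean of the 6 group means. The Scd2 panel spans over 2 log2 units and the Srebf1 panel under 1.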

How the data were processed

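The authors aligned the reads with STAR to mm10, per the submitters' processing notes, and deposited 1 table of RPKM for 18668 gene symbols in 18 libraries; the annotation is not given in the sources used here. The labels name more than one sequencing platform, and which library ran on which was not resolved. The authors' own test needs counts, so log2(RPKM + 0.1) of the 12838 genes that reached 0.1 RPKM in 3 or more libraries was fitted here with limma 3.58.1 in R 4.3.3 (6 group means, eBayes with trend), with Benjamini-Hochberg adjustment of p over these genes in each of 11 comparisons. Limits of 0.05 and 1.4-fold follow the study's methods. Low RPKM values rise in steps of 1 read. In 73.2% of 3908 low genes all values were multiples of such a step (to within 0.05), which gave the relative depths. Read numbers cover counting error only. RPKM divides by all reads of a library, so a few abundant RNAs can shift every other value.

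Replicates are described as biological in the series text. Deviations from the group means of same-numbered libraries correlated in all 18 pairs within a genotype (0.18 to 0.69). Between genotypes their median correlation was -0.17. The number was therefore read as an animal within a genotype only, which the labels do not state. In the block alternative, comparisons between genotypes were nonetheless blocked by the number across genotypes. Alternatives were other pseudocounts (1 and 0.01), filters, median ratio rescaling, no trend, no fold limit, only the groups compared, a term for or removal of the Xist-positive libraries, the block and leaving out each library. The genes, lists and rules were chosen with earlier results of these data known. Named list genes were up to 4 per list with the largest called changes. Motifs were counted in RefSeq promoter windows on GRCm38.p6.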

Additional observations from a re-analysis of the deposited data

Results flagged for a closer look

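Scd2 rose more with oxLDL in DKO than in Apoe-/- cells when the replicate number, read as the animal, was a block. The interaction was 1.29 on the log2 scale with oxLDL 10 (limma, adjusted p = 0.0386) and 1.23 with oxLDL 60 (adjusted p = 0.0231). In this fit 1 of 12838 genes was called with oxLDL 10 and 5 with oxLDL 60. All 3 DKO replicate numbers (2.07 to 2.59 with oxLDL 10) rose more than all 3 Apoe-/- replicate numbers (0.51 to 1.32). How many of all genes separate in this way was not counted. The same values enter the interaction, so this separation adds no independent support to it. Without the block the adjusted p for Scd2 was 1.0 and 0.414, and with the block and rescaling together it was 0.0735 and 0.0210. The treated levels of the genotypes overlapped and the untreated levels did not, a separation that 19.6% of all genes showed.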

How the results depend on the processing

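Of 22 member changes that were called, none changed direction under any alternative and 15 were called under every one. Of 88 that were not called, 29 changed sign under at least one alternative, with main values of at most 0.14 in size and values of the other sign of at most 0.10 on the log2 scale. With a pseudocount of 1, 1 member in place of 2 was called between the amounts of oxLDL in each genotype, and Elovl6 with oxLDL 10 and Scd1 with oxLDL 60 lost their calls. Leaving out single libraries gave 1 to 2 members called with oxLDL 10 in DKO cells, where 3 were called with all libraries (1 without untreated replicate 1 or without oxLDL 10 replicate 1 or 2), and 0 to 1 between untreated genotypes, where fitting only the groups compared gave 0. With the replicate block, 1 member (Scd2) was called in the interaction with oxLDL 10, of 1 gene called in all, and 1 with oxLDL 60, of 5 genes. With the block and rescaling together 1 member was called with oxLDL 60, of 5 genes. The block changed no other member call, and it raised the genes called with oxLDL 10 in DKO cells from 290 to 449. Between genotypes the number joined libraries of different animals, so this block could not test the call for Scd2 in untreated cells. Rescaling changed the numbers of all genes higher and lower from 246 and 480 to 361 and 360 between the amounts of oxLDL in DKO cells, and from 22 and 5 to 14 and 9 between untreated genotypes. With oxLDL 60 against untreated cells they changed from 915 and 871 to 776 and 1016 in Apoe-/- and from 625 and 939 to 770 and 801 in DKO cells. Scd1 had no value under a filter of 1 RPKM. Few reads limit Scd1 (an estimated 5 to 54 per library).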
